A study of Homo sapiens with 6 samples.

Results

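The MYC and MAX network is a family of transcription factors, taken here as 10 genes: MYC, MYCN, MAX, MXD1, MXD3, MXD4, MXI1, MNT, MLX and MGA. Each was found in the deposited count files by its Ensembl identifier, with 1 identifier per symbol among 78932, and 9 of the 10 had enough reads to be tested, among 17677 tested genes. The cells were of the human line Karpas-45, established from a T-cell acute lymphoblastic leukemia, and were transduced with a lentivirus that carried GFP and a short hairpin RNA. In the control group (genotype WT) the hairpin was a scramble sequence, and in the other (genotype MEF2C KD, shMEF2CKD2) it was 1 hairpin directed at the transcription factor MEF2C. Both groups shared the line, the vector type and the absence of drug, and by the study's design text GFP-positive cells were sorted 120 hours after transduction. Both groups had 3 libraries, named technical replicates in the labels, so their spread, which may be technical, is all that a p-value is measured against.

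MYC binds DNA only as a dimer with MAX, through a basic helix-loop-helix leucine zipper, and the dimer recognises the E-box CACGTG and activates genes of growth and ribosome assembly. MXD proteins, MXI1, MNT and MGA compete with MYC for MAX and repress, MXD proteins, MXI1 and MNT by recruiting SIN3 corepressors and MGA as the scaffold of a variant Polycomb complex, PRC1.6. MLX is a second dimerisation hub, which pairs with the glucose-sensing factor MondoA (gene MLXIP) and also with some MXD proteins and MNT. In T-cell leukemia MYC is a well-known target of NOTCH1.

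Gene totals ran from 45560303 to 97077335 reads per library. The share of reads that aligned to more than 1 place was between 3.56% and 16.1%, and the highest share belonged to MEF2C hairpin replicate 3. MEF2C itself received between 0 and 2 reads in every library of both groups, so it cannot check the labels, and these data cannot tie a difference to a loss of its mRNA. Levels are given as CPM, reads per 1000000 gene reads of a library, where the library total was scaled by TMM for tested genes. The summed level of 10 T-lineage markers was 3720 to 3802 CPM in scramble and 3862 to 3959 CPM in MEF2C hairpin libraries, with none at 0. The summed level was at most 2.59 CPM for 8 myeloid markers, at most 3.60 CPM in scramble and between 4.03 and 4.17 CPM in hairpin libraries for 6 B-lineage markers and at most 6.28 CPM for 6 erythroid markers. Markers of an embryonic kidney line, the kind of cell that packaged the virus, summed to 23.9 to 25.6 CPM in scramble and 26.0 to 27.1 CPM in MEF2C hairpin libraries, with EYA1 and LHX1 at 0. The T-lineage, B-lineage and kidney sums differed between the groups without overlap, and their part in the results was not tested. By the edgeR test described below, 7 of the 10 T-lineage markers were higher, beside 13.5% of all tested genes. The other 3, among them CD3E and ZAP70, did not pass. Only 2 B-lineage markers, CD79A and CD79B, could be tested, and neither passed. Of the 3 kidney markers tested 2 were higher and 1 was lower. In these bulk libraries a change in the make-up of the cells and a change of RNA per cell cannot be told apart.

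The E-box letters are shown because several network genes carry in their own promoters the site that the network reads. RefSeq promoter windows on GRCh38.p14, from 250 bases before to 50 after a gene's start, were found for 9 of the 10 members, in 14 windows. No window was available for MYC, so its promoter was not searched. The motif CACGTG reads the same on both strands. It was present for 3 of these 9 genes, MXD4, MNT and MLX, against 8.77% of 27305 genes with such a window and 12.2% of 10903 tested ones. In the sequences below, 5′ to 3′ on the gene's strand, capitals mark the E-box. The first 3 belong to members, and the others to genes that MYC is known to activate and that are described below: the chaperone HSPD1, the ribosome assembly factor UTP20 and the polyamine enzyme ODC1.
MXD4, chr4:2262330-2262359, minus strand: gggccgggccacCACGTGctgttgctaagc
MNT, chr17:2401236-2401265, minus strand: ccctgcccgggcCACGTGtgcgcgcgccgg
MLX, chr17:42567038-42567067, plus strand: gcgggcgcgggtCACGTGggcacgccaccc
HSPD1, chr2:197500345-197500374, minus strand: cggccctggcgaCACGTGaaaaaatcaccc
UTP20, chr12:101280083-101280112, plus strand: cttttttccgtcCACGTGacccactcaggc
ODC1, chr2:10448024-10448053, minus strand: ccgggccccgggCACGTGtgcggcgcgcct
ODC1, chr2:10447990-10448019, minus strand: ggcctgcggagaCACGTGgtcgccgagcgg
The motif began 238 bases before the start of MXD4, 193 before that of MNT and 50 before that of MLX. It began 88 bases before the start of HSPD1, 10 before that of UTP20 and 29 before that of ODC1, whose other copy lay just past the start. A match describes letters in this window and does not show that a factor binds there.

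Of the 9 tested members, MXD1, MXI1 and MGA rose and MXD4 fell in the MEF2C hairpin libraries, all by small amounts, while MYC, MAX, MXD3, MNT and MLX did not pass the test. That is 4 of 9, and of all tested genes 28.8% passed the test in either direction, 13.5% higher and 15.3% lower (edgeR's quasi-likelihood test, Benjamini-Hochberg adjusted p below 0.05 over all tested genes). For these 4 members the CPM ranges of the groups were apart, and for the other 5 they overlapped, where 39.9% of all tested genes did not overlap. The median log2 fold change of the 9 members was 0.03. Calls depended on level. At 5 to 20 CPM, the level of MXD1 and MXI1, 31.2% of genes passed the test, 22.4% higher and 8.75% lower. At 20 to 100 CPM, the level of MAX, MXD3, MXD4, MNT and MLX, 40.4% passed, 17.0% higher and 23.5% lower. At 100 CPM and over, the level of MYC and MGA, 57.5% passed, 12.6% higher and 44.9% lower.

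**Figure D1:**
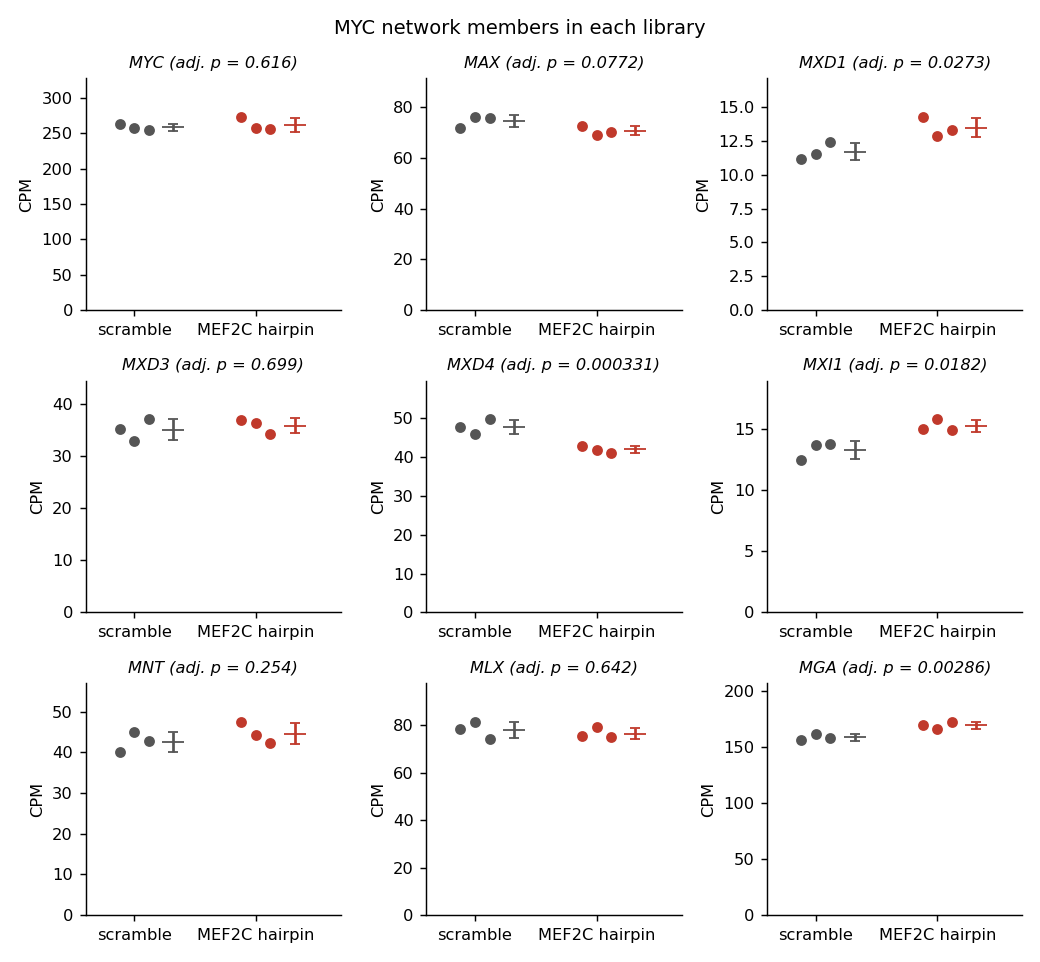
CPM (linear axis from 0) of the 9 tested members in each library, grey for scramble and red for MEF2C hairpin, with the mean and SD (n = 3) to the right of each group and the edgeR adjusted p in the title. The groups are apart for MXD1, MXD4, MXI1 and MGA, and overlap for MYC, MAX, MXD3, MNT and MLX.

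MYC (ENSG00000136997.22), the activator of the network, measured 263, 258 and 254 CPM in scramble replicates 1 to 3 and 273, 257 and 256 CPM in MEF2C hairpin replicates 1 to 3. The values of the groups overlapped, and the highest came from MEF2C hairpin replicate 1. The log2 fold change was 0.02 (SE 0.0240, adjusted p = 0.616 by edgeR), with 2 SE either side reaching from -0.03 to 0.07. MYC passed the threshold under 1 of 14 alternatives, a limma-voom fit on values normalized by cyclic loess, which levels the trend of change with expression, at 0.08 (adjusted p = 0.0158). The adjusted p ranged from 0.0158 to 0.908 over the alternatives.

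MYCN (ENSG00000134323.13, chromosome 2, 15940564 to 15947007), the MYC relative of neural and embryonic cells, was not detectable at this depth. It received 0 reads in the 3 scramble libraries together and 1 read in the MEF2C hairpin libraries, which gives at most 0.0218 CPM and at most 0.0269 CPM (upper bounds of exact Poisson 95% intervals, for counting error only). No fold is given, since both groups lie under the floor of 3 reads.

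MAX (ENSG00000125952.21, chromosome 14, 65006174 to 65102695), the common partner of MYC and its antagonists, measured 72.0, 76.2 and 75.8 CPM in scramble libraries against 72.7, 69.2 and 70.4 CPM in hairpin libraries. MEF2C hairpin replicate 1 lay above scramble replicate 1, and the other hairpin libraries lay below all of the scramble libraries. The log2 fold change of -0.08 (SE 0.0330, adjusted p = 0.0772 by edgeR) did not pass the threshold. It passed without scramble replicate 1, at -0.10 (edgeR adjusted p = 0.0262), and without MEF2C hairpin replicate 1, at -0.10 (edgeR adjusted p = 0.0444), in a range of adjusted p from 0.0262 to 0.289 over 14 alternatives.

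Among the MXD antagonists, which accompany exit from the cell cycle and differentiation, MXD4 moved against MXD1 and MXI1. MXD4 (ENSG00000123933.17, chromosome 4, 2247432 to 2262294) measured 47.6, 45.8 and 49.6 CPM in scramble libraries against 42.8, 41.8 and 41.1 CPM in hairpin libraries. Every hairpin library was below every scramble library. MXD4 fell by 0.19 on the log2 scale (SE 0.0401, adjusted p = 0.000331 by edgeR), and the call held in all 14 alternatives, with adjusted p from 6.02e-05 to 0.00702.

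MXD1 (ENSG00000059728.11, chromosome 2, 69897688 to 69942945), a MAX partner induced in maturing cells, measured 11.2, 11.5 and 12.4 CPM in scramble libraries against 14.3, 12.9 and 13.4 CPM in hairpin libraries. The groups did not overlap, but scramble replicate 3 and MEF2C hairpin replicate 2 were close. MXD1 rose by a log2 fold change of 0.20 (SE 0.0706, adjusted p = 0.0273 by edgeR). The call was lost in 5 of 14 alternatives: without scramble replicate 1 (0.17, edgeR adjusted p = 0.117), without scramble replicate 2 (0.19, edgeR adjusted p = 0.0716), without MEF2C hairpin replicate 1 (0.16, edgeR adjusted p = 0.155), with DESeq2 (adjusted p = 0.0647) and with cyclic loess (limma adjusted p = 0.113).

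MXI1 (ENSG00000119950.21, chromosome 10, 110207605 to 110287365), also known as MXD2, measured 12.4, 13.7 and 13.7 CPM in scramble libraries against 15.0, 15.8 and 14.9 CPM in hairpin libraries. All hairpin libraries lay above all scramble libraries, and scramble replicate 1 was the lowest. The log2 fold change was 0.20 (SE 0.0657, adjusted p = 0.0182 by edgeR), lost without scramble replicate 1 (0.15, edgeR adjusted p = 0.123) or MEF2C hairpin replicate 2 (0.17, edgeR adjusted p = 0.117) and kept in the other 12 alternatives.

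MXD3 (ENSG00000213347.11, chromosome 5, 177301461 to 177312757), the MXD protein of proliferating cells, measured 35.3, 33.0 and 37.1 CPM in scramble libraries against 36.9, 36.4 and 34.3 CPM in hairpin libraries. The groups overlapped, with a log2 fold change of 0.03 (SE 0.0462, adjusted p = 0.699 by edgeR; 2 SE either side from -0.06 to 0.12). Exons of PRELID1 and RAB24 overlap 40.4% of the exonic bases of MXD3 in GENCODE 29, and reads shared by genes were left out, so its level is less certain.

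MNT (ENSG00000070444.15, chromosome 17, 2384060 to 2401118), the broadly expressed MAX-bound repressor, measured 40.03, 44.9 and 42.7 CPM in scramble libraries against 47.5, 44.2 and 42.2 CPM in hairpin libraries. These values overlapped (log2 fold change 0.07, SE 0.0448, edgeR adjusted p = 0.254; 2 SE either side from -0.02 to 0.16). MLX (ENSG00000108788.12, chromosome 17, 42567068 to 42573239) measured 78.5, 81.4 and 74.4 CPM in scramble libraries against 75.5, 79.1 and 74.97 CPM in hairpin libraries. The groups overlapped throughout (log2 fold change -0.03, SE 0.0337, edgeR adjusted p = 0.642; 2 SE either side from -0.09 to 0.04). Exons of other genes cover 12.2% of the exonic bases of MNT and 18.1% of those of MLX, and no source used here says whether counting used strand.

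MGA (ENSG00000174197.19, chromosome 15, 41621224 to 41773081) joins a T-box to a helix-loop-helix domain and holds PRC1.6 together with MAX. It measured 156, 162 and 158 CPM in scramble libraries against 169, 166 and 172 CPM in hairpin libraries, all of the latter above all of the former. MGA rose by 0.09 on the log2 scale (SE 0.0245, adjusted p = 0.00286 by edgeR). The call held in all 14 alternatives, with adjusted p from 6.7e-05 to 0.0256.

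**Figure D2:**
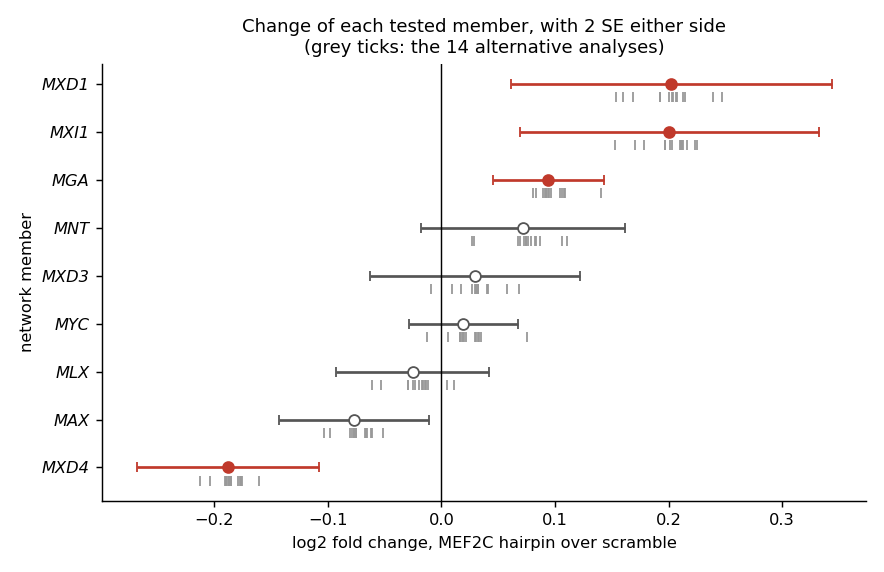
Log2 fold change of each tested member, MEF2C hairpin over scramble, with 2 SE either side; filled red points passed the edgeR threshold and open points did not, and grey ticks are the 14 alternative analyses. MXD1 and MXI1 lie near 0.20, MGA at 0.09 and MXD4 at -0.19, and the alternatives of MYC, MXD3 and MLX fall on both sides of 0.

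Levels of different members were compared as CPM per kilobase of merged exons. MYC was the most abundant member, at 86.1 ± 1.45 CPM per kilobase in scramble libraries against 87.3 ± 3.25 in hairpin libraries (SD, n = 3 per group). The next were MLX at 18.3 ± 0.828, MAX at 16.9 ± 0.527 and MGA at 8.98 ± 0.162 in scramble libraries. In scramble libraries MYC stood at 4.69 times the level of MLX. Below them came MXD3 at 6.82 ± 0.397 and MXD4 at 6.76 ± 0.265, the only neighbours in the scramble order that did not differ beyond their SDs. MNT followed at 4.88 ± 0.280, MXI1 at 2.89 ± 0.163 and MXD1 at 1.84 ± 0.100. The order was the same in the MEF2C hairpin libraries, where MXD3 at 6.96 ± 0.273 and MXD4 at 5.94 ± 0.126 differed beyond their SDs.

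The order depends on the length used. MYC was first and MXD1 last with the longest transcript as the length, MYC was also first with the coding length, and 2 of the 9 members kept their place with the coding length. With the longest transcript 6 of 9 kept it in scramble libraries and 7 of 9 in hairpin libraries, and those that moved were among MGA, MXD3 and MXD4. MXD4 fell while MXD1 and MXI1 rose. Per kilobase of merged exons, the sum of MXD1, MXD3, MXD4 and MXI1 was 18.3 ± 0.763 with the scramble against 18.3 ± 0.481 with the MEF2C hairpin (SD, n = 3 per group). MXD4 made up 37.4, 36.7 and 36.7% of that sum in scramble and 32.4, 32.1 and 32.7% in MEF2C hairpin libraries, with the groups apart. MYC made up 73.6, 72.8 and 72.0% of all MAX partners among the members in scramble and 72.9, 72.2 and 72.4% in MEF2C hairpin libraries, which overlapped. The ratio of MYC to MAX was 5.39, 4.99 and 4.96 with the scramble against 5.54, 5.48 and 5.36 with the MEF2C hairpin, also overlapping. The MXD sum and the part of MXD4 in it depend on the length and were taken with merged exons only. Per kilobase of coding length MXD4 was at 76.0 in scramble and 66.8 in hairpin libraries. There MXD3 was at 30.2 and 30.8, MXD1 at 17.7 and 20.4 and MXI1 at 15.0 and 17.2. These sums and ratios rest on the members' values above and were not tested.

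**Figure D3:**
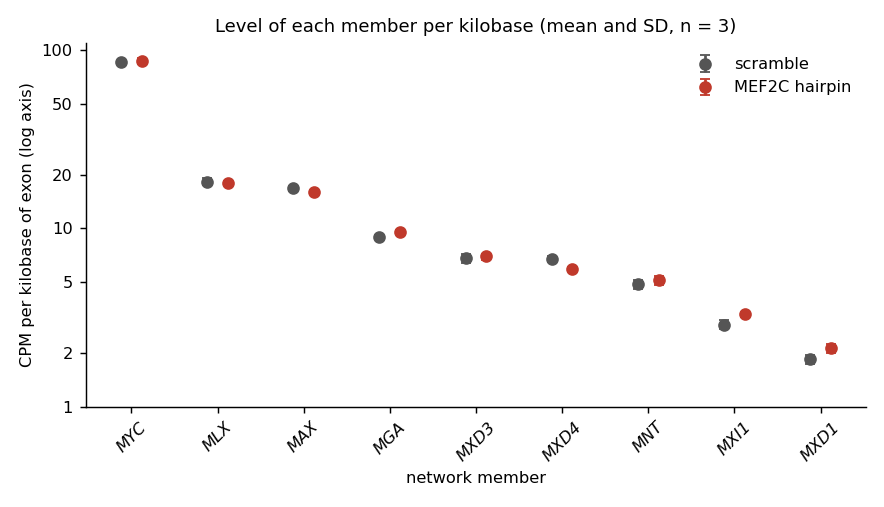
Mean and SD (n = 3 libraries) of each tested member in CPM per kilobase of merged exons, on a log axis, in the order of the scramble libraries. MYC stands at 86.1 in scramble libraries, above MLX at 18.3 and MAX at 16.9, and MXD1 is lowest at 1.84.

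By likeness of pattern, measured as the root mean square distance between log2 CPM centred over the 6 libraries, the nearest of 10140 genes of at least 5 CPM to MYC were MICAL1 (0.0109), PHF21A (0.0118), PDCD2L (0.0128), N4BP2L1 (0.0147) and SDHB (0.0158). Like MYC, none of them passed the test, with log2 fold changes from -0.01 to 0.01. The measure was taken over 6 libraries only and ranks genes that varied little.

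Of the other subunits of the MGA complex PRC1.6, which silences germline genes in somatic cells, 6 of 10 fell and none rose. Of all tested genes 15.3% were lower and 13.5% higher. The median log2 fold change of the subunits was -0.12, beside a median of 0.0041 over all tested genes. PCGF6, the RING-finger subunit specific to this complex, measured 26.2, 24.8 and 26.7 CPM in scramble libraries against 19.5, 18.0 and 17.5 CPM in hairpin libraries, without overlap. PCGF6 fell by 0.50 on the log2 scale (SE 0.0550, adjusted p = 2.63e-09 by edgeR). RYBP, which binds the RING1 enzymes, measured 77.4, 73.3 and 77.0 CPM in scramble libraries against 58.4, 56.5 and 59.1 CPM in hairpin libraries.

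RYBP fell by 0.39 (SE 0.0339, adjusted p = 8.69e-12 by edgeR), also with the groups apart. TFDP2, a partner of E2F factors, fell by 0.21 (SE 0.0180, adjusted p = 4.26e-12 by edgeR). The remaining calls were TFDP1 at -0.13, the ubiquitin ligase RNF2 at -0.18 and the methyl-lysine reader L3MBTL2 at -0.11. E2F6 at -0.04, RING1 at -0.08, CBX3 at -0.05 and YAF2 at 0.0011 did not pass. All 6 calls held in all 14 alternatives. More abundant genes were more often lower in these libraries: of genes of 20 to 100 CPM 23.5% were lower, against 4 of the 7 subunits at that level, and of genes of at least 100 CPM 44.9% were lower, against 2 of the 3.

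Germline genes that MGA's complex is known to repress stayed mostly unread. Of 20 listed, 14 had too few reads to test, with at most 33 reads in any library, among them DDX4, DAZL and MAEL. Of the 6 tested none rose and 1 fell, beside 13.5% higher and 15.3% lower of all tested genes. So few genes do not show whether repression held. TAF7L, a germ-cell relative of a TFIID subunit, fell from 2.43 ± 0.416 to 1.59 ± 0.183 CPM (SD, n = 3 per group, a log2 difference of -0.60 with SE 0.179 and an adjusted p of 0.00873 by edgeR), a call lost without scramble replicate 1 (edgeR adjusted p = 0.0548).

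The corepressors that MXD proteins and MNT recruit changed in both directions. Of 17 SIN3 and NCOR complex genes 6 fell and 2 rose, with a median of -0.06, beside 15.3% lower and 13.5% higher of all tested genes. With cyclic loess 5 of the complex genes were lower and 3 higher. The histone chaperone RBBP4 fell by 0.16 (SE 0.0187) and ARID4B by 0.19 (SE 0.0272). The edgeR adjusted p was 2.15e-08 for RBBP4 and 9.97e-07 for ARID4B. Other exons cover 18.0% of the exonic bases of RBBP4 and 15.7% of those of ARID4B. The scaffold SIN3A at -0.04, the deacetylases HDAC1 at -0.00056 and HDAC2 at -0.02 and NCOR1 at -0.04 did not pass. Of the 10 corepressor genes of at least 100 CPM 4 were lower and 1 was higher, against 44.9% and 12.6% of all such genes. Of the 6 at 20 to 100 CPM 1 was lower, against 23.5%.

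On the MLX side, TXNIP rose. TXNIP, an inhibitor of glucose uptake and the best-known MondoA-MLX target, measured 26.7, 26.5 and 23.8 CPM in scramble libraries against 37.9, 39.1 and 38.4 CPM in hairpin libraries. The groups were far apart (log2 fold change 0.59, SE 0.0478, edgeR adjusted p = 1.95e-12). MLXIP, which encodes MondoA, measured 115 ± 3.41 and 127 ± 0.839 CPM (SD, n = 3 per group, a log2 difference of 0.14 with SE 0.0267 and an adjusted p of 4.72e-05 by edgeR). Both calls held in all 14 alternatives.

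ARRDC4, the other classical MondoA target, received 0 reads in 5 libraries and 10 reads in scramble replicate 3, so it was not tested. Of the 8 listed MLX-MondoA targets 6 were tested, of which 3 rose and 1 fell, with a median of 0.07, beside 13.5% higher and 15.3% lower of all tested genes. Of the 6, 5 lay at 20 to 100 CPM, among them TXNIP and KLF10, which rose, and HK2, which fell. At that level 17.0% of all genes were higher and 23.5% lower. Besides TXNIP, the transcription factor KLF10 rose by 0.39 (SE 0.0506, adjusted p = 1.02e-07 by edgeR). FASN, fatty acid synthase, rose by 0.07 (SE 0.0223), with the call kept in 12 of 14 alternatives. FASN lay at a mean of 326 CPM, and of all genes of at least 100 CPM 12.6% were higher. HK2, the hexokinase that MYC also activates, fell from 85.4 ± 2.18 to 71.2 ± 1.80 CPM (SD, n = 3 per group, a log2 difference of -0.26 with SE 0.0317 and an adjusted p of 2.61e-08 by edgeR). PFKFB3 at -0.13 and ACACA at 0.06 did not pass.

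Of 8 related E-box factors and MYC-binding proteins 7 were tested, and 3 rose, with a median of 0.03, beside 13.5% higher of all tested genes. Besides MLXIP they were TFE3, a lysosomal and metabolic regulator, at 0.26 (SE 0.0537, adjusted p = 0.000272 by edgeR), and MYCL, the third MYC gene. MYCL stayed very low, at 0.132 ± 0.0591 CPM in scramble against 0.357 ± 0.0910 CPM in hairpin libraries (SD, n = 3 per group, a log2 difference of 1.39 with SE 0.505 and an adjusted p of 0.0338 by edgeR). MYCL did not pass in 7 of 13 alternatives, where the adjusted p reached 0.170. USF1 at -0.02 and USF2 at -0.03, which bind the same E-box, did not pass. MLXIPL, which encodes the MondoA relative ChREBP, received 0 reads.

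Genes that MYC is known to activate were more often lower than higher, as were all tested genes at 20 to 100 CPM and at 100 CPM and over. Of 61 such genes, all tested, 24 fell and 3 rose, with a median of -0.05. Of all tested genes 15.3% were lower and 13.5% higher. With cyclic loess 18 genes of the list were lower and 5 higher. The list held 27 genes of at least 100 CPM, of which 14 were lower and 1 was higher. Of all genes at that level, with a median of -0.05, 44.9% were lower and 12.6% higher. It held 27 genes of 20 to 100 CPM, of which 10 were lower, where 23.5% of all genes were lower and 17.0% higher. HSPD1, the mitochondrial chaperonin, measured 920, 918 and 949 CPM in scramble libraries against 596, 595 and 613 CPM in hairpin libraries, a log2 fold change of -0.63 (SE 0.0198, adjusted p = 1.89e-24 by edgeR).

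HSPD1 stood far from the other genes of the list that fell. NOLC1, a nucleolar chaperone, fell by 0.29 (SE 0.0208, adjusted p = 8.08e-14 by edgeR) and UTP20 by 0.29 (SE 0.0270, adjusted p = 3.84e-11 by edgeR). NCL, which encodes nucleolin, went from 2123 ± 53.6 to 1881 ± 28.5 CPM (SD, n = 3 per group, a log2 difference of -0.17 with SE 0.0188 and an adjusted p of 1.74e-09 by edgeR). ODC1, the first enzyme of polyamine synthesis and an early known MYC target, went from 506 ± 5.66 to 463 ± 4.61 CPM (SD, n = 3 per group, a log2 difference of -0.13 with SE 0.0199 and an adjusted p of 2.26e-06 by edgeR). LDHA at 0.02 and CDK4 at -0.0021 did not pass. Nor did HSPE1, whose exons overlap those of HSPD1 from the opposite strand, at -0.05 (SE 0.0514, adjusted p = 0.569 by edgeR). The 3 that rose were the replication helicase subunit MCM4 at 0.10, TMEM97 at 0.11 and the nucleoside transporter SLC29A2 at 0.72, the last at a mean of 1.40 CPM in hairpin libraries. The calls of TMEM97 and SLC29A2 were kept in 9 and 12 of 14 alternatives. These 3 and LDHA, CDK4 and HSPE1 were named after their values were seen.

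**Figure D4:**
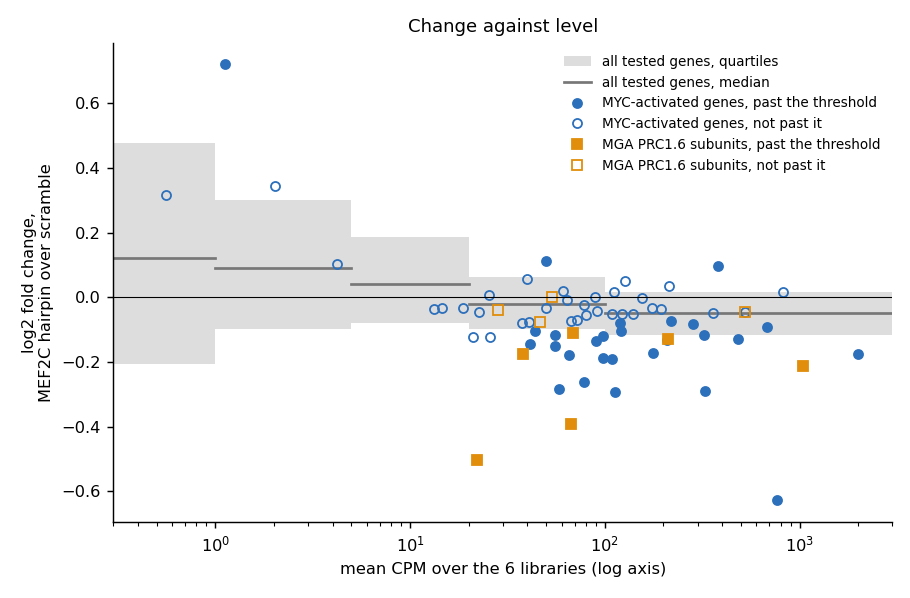
Log2 fold change against mean CPM (log axis) for the 61 MYC-activated genes (circles) and the 10 PRC1.6 subunits (squares), filled where the edgeR threshold was passed; the grey band and line give the quartiles and median of all tested genes in 5 level classes. HSPD1 at -0.63 and PCGF6 at -0.50 lie farthest below the band, and the median of all genes goes from 0.12 under 1 CPM to -0.05 at 100 CPM and over.

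Genes that MYC is known to repress went both ways. Of 16 listed 14 were tested, of which 3 rose and 4 fell, with a median of 0.01, beside 13.5% higher and 15.3% lower of all tested genes. CDKN1A, the cyclin-dependent kinase inhibitor p21, measured 4.73, 5.38 and 5.75 CPM in scramble libraries against 11.1, 11.2 and 10.8 CPM in hairpin libraries. The groups were far apart (log2 fold change 1.06, SE 0.0900, edgeR adjusted p = 4.95e-12). GADD45B, a stress-response gene, rose by 0.36 (SE 0.0746, adjusted p = 0.000238 by edgeR), and the ferritin heavy chain gene FTH1 fell by 0.18 (SE 0.0187, adjusted p = 4.63e-10 by edgeR). Exons of other genes cover 62.4% of the exonic bases of FTH1. CDKN1A and GADD45B, which rose, and NDRG1, which fell, lay at 5 to 20 CPM. At that level 22.4% of all genes were higher and 8.75% lower. The list held 2 genes of at least 100 CPM, of which 2 were lower, against 44.9% of all such genes. The number of calls was 4 without scramble replicate 2 and with DESeq2, and 3 without MEF2C hairpin replicate 1.

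Of 12 cofactors that MYC brings to DNA, 7 fell and none rose, with a median of -0.08, beside 15.3% lower and 13.5% higher of all tested genes. Of the 9 cofactors of at least 100 CPM 6 were lower, against 44.9% of all such genes. With cyclic loess 4 of the 12 were lower and 1 was higher. RUVBL2, an ATPase of the TIP60 complex, fell by 0.24 (SE 0.0266, adjusted p = 2.57e-09 by edgeR), WDR5, a MYC-binding subunit of KMT2 complexes, by 0.17 (SE 0.0245, adjusted p = 9.7e-07 by edgeR) and BPTF, the NURF remodeler subunit, by 0.12 (SE 0.0234, adjusted p = 0.000159 by edgeR). ZBTB17, which encodes MIZ1, the partner of MYC in repression, was at -0.05 and did not pass.

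Genes that set the turnover of MYC protein gave 2 higher and 5 lower of 18, with a median of -0.05, beside 13.5% higher and 15.3% lower of all tested genes. Of its 7 genes of at least 100 CPM 2 were lower, against 44.9% of all such genes. With cyclic loess 3 were higher and 3 lower, and without scramble replicate 3 the numbers were 2 and 3. SET, an inhibitor of the phosphatase PP2A, rose from 1501 ± 14.6 to 1766 ± 6.20 CPM (SD, n = 3 per group, a log2 difference of 0.23 with SE 0.0175 and an adjusted p of 1.77e-13 by edgeR). The ubiquitin ligase HUWE1 fell by 0.13 (SE 0.0213, adjusted p = 4.58e-06 by edgeR) and the F-box protein gene SKP2 by 0.15 (SE 0.0254, adjusted p = 1.02e-05 by edgeR). FBXW7, the F-box gene often mutated in T-cell leukemia, was at -0.09 (SE 0.0420, adjusted p = 0.0954 by edgeR) and did not pass. MYC protein was not measured.

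Of 18 regulators of MYC transcription in T cells 3 rose and 10 fell, with a median of -0.09, beside 13.5% higher and 15.3% lower of all tested genes. With cyclic loess 5 of the regulators were higher and 7 lower. The list is abundant, and of its 16 genes of at least 100 CPM 9 were lower, against 44.9% of all such genes. The smallest adjusted p belonged to RUNX1 at -0.27 (SE 0.0214), ETS1 at -0.21 (SE 0.0199) and GATA3 at -0.22 (SE 0.0252), with edgeR adjusted p of 8.25e-13, 1.51e-10 and 5.56e-09. NOTCH1 rose by 0.10 (SE 0.0196, adjusted p = 5.92e-05 by edgeR). MYB was at -0.01 and did not pass. NOTCH1 and MYB were named after their values were seen.

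**Figure D5:**
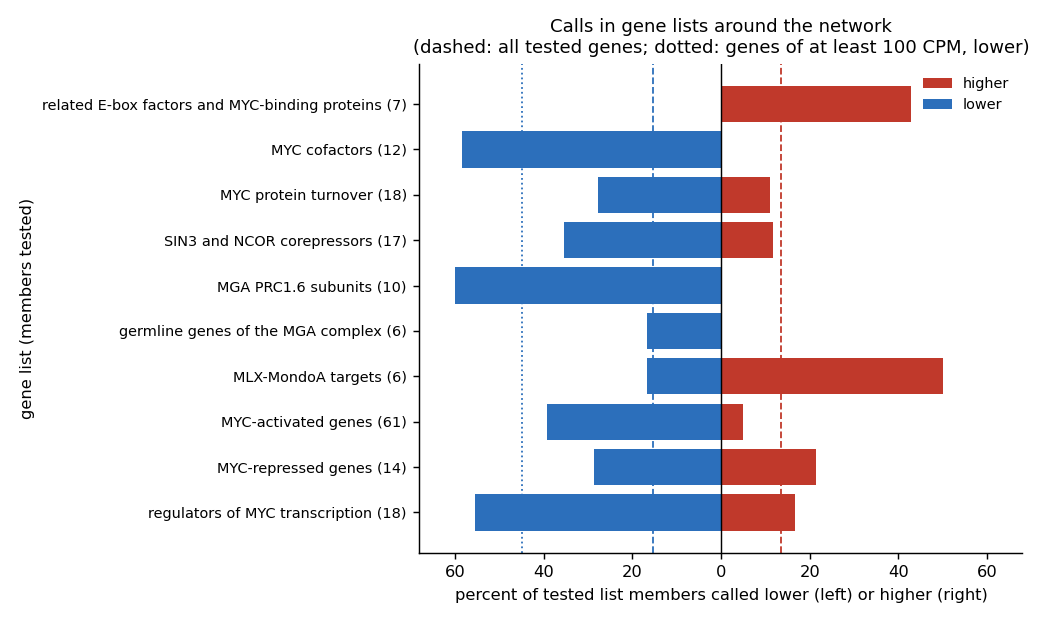
Percent of the tested members of each list called lower (blue, to the left) or higher (red, to the right) by edgeR, with the number tested in brackets; dashed lines give the shares of all tested genes, 15.3% lower and 13.5% higher, and the dotted line the 44.9% lower among genes of at least 100 CPM. PRC1.6 subunits and MYC cofactors have lower calls only (with cyclic loess 1 cofactor is higher), and the related E-box factors higher calls only.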

How the data were processed

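RNA of 6 Karpas-45 libraries, 3 with a scramble and 3 with a MEF2C hairpin, was extracted with TRIzol and made into TruSeq libraries, per the labels' protocols. The deposited values are raw read counts, not normalized, which the authors made for each gene with Trim Galore, STAR and HTSeq on hg38, per the submitters' processing notes; versions, annotation release and strand setting are not given in the sources used here. The 5 HTSeq summary lines, which name no gene, held between 19.2% and 31.4% of reads and were left out. HTSeq leaves out reads that fall in more than 1 gene.

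Genes were kept by filterByExpr (minimum count 10), scaled by TMM and tested with edgeR 4.0.16 (R 4.3.3), quasi-likelihood, robust, with no term but group, with Benjamini-Hochberg adjustment over 17677 genes and a threshold of 0.05. The SE was taken as the size of the log2 fold change divided by the root of F. CPM were computed on TMM-scaled totals for tested genes and on gene totals for others. Symbols came from a table that matched 61481 identifiers, and positions, lengths and overlaps from GENCODE 29 on GRCh38, which may not be the submitters' release and held 90.0% of tested genes. Chi-square per gene between replicates was 3.31 to 4.46, above sampling noise, so none was taken as a repeat deposit, and this does not show that they came from separate cultures.

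Members and gene lists were chosen with earlier results of these data known, so list counts are descriptions. Named were all members, TXNIP, ARRDC4, NCL and ODC1, for each list the up to 3 called genes of lowest adjusted p, and the 5 genes nearest to MYC in pattern. Further genes named in the lists were chosen after their values were seen. Not every gene the rule would name is reported here. HK2 and CBX3 stand in 2 lists. Alternatives were DESeq2 size factors, upper-quartile scaling, no filter, a filter of 1 CPM in 3 libraries, each library left out in turn, DESeq2 1.42.0, a replicate block, and limma-voom (limma 3.58.1) without and with cyclic loess.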

Additional observations from a re-analysis of the deposited data

How the results depend on the processing

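Over the 14 alternatives the number of members called stayed between 3 and 4, and MXD4 and MGA kept direction and call in each. Leaving out 1 library at a time gave log2 fold changes of -0.012 to 0.035 for MYC, -0.10 to -0.061 for MAX, 0.16 to 0.25 for MXD1, 0.15 to 0.22 for MXI1, -0.0090 to 0.069 for MXD3, 0.03 to 0.11 for MNT and -0.061 to 0.0050 for MLX. The sign turned for MYC without MEF2C hairpin replicate 1 (-0.012) and, without scramble replicate 2, for MXD3 (-0.0090) and MLX (0.0050). With cyclic loess MYC was called at 0.076, MXD1 lost its call at 0.15 and MLX was at 0.011, and DESeq2 left MXD1 uncalled at 0.20; the cause was not tested. Calls among germline genes ranged from 0 to 1 and among MYC-repressed genes from 3 to 6 without 1 library, and DESeq2 gave 4 of the latter. By longest transcript and coding length, 7 and 2 members kept their place in the level order over all 6 libraries (6 and 2 in scramble libraries alone), and MYC made up 67.7 and 51.2% of MAX partners in scramble and 67.6 and 51.8% in MEF2C hairpin libraries. A replicate block gave 4892 calls over all genes in place of 5097 and changed no member's call. Same-numbered libraries did not deviate together (correlations of -0.102, 0.0188 and 0.0327), and the labels do not say that the numbers pair libraries. With 3 libraries per group such correlations cannot exclude a pairing. MYCN and ARRDC4 had too few reads for a test, and at 3 reads the floor is up to 0.0658 CPM per library.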

Other observations

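Promoter E-boxes were set beside the change of every tested gene with a RefSeq promoter window. Of 1325 genes with CACGTG 23.5% were lower and 14.4% higher, and of 9578 without it 19.7% were lower and 15.7% higher, with medians of -0.0087 and -0.0056. Among genes of at least 100 CPM, 50.3% of 308 with the motif and 45.1% of 1846 without it were lower. Of the MYC-activated genes 27 of 51 with a window held the motif, and 8 of these 27 were lower, among them HSPD1 and ODC1, against 11 of the 24 without it, among them NCL. These are counts, with no test of the difference.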
